A study of Homo sapiens with 15 samples.

Results

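The antioxidant enzymes described here were the superoxide dismutases SOD1, SOD2 and SOD3, catalase (CAT), the glutathione peroxidases GPX1, GPX2, GPX3, GPX4 and GPX8, and glutathione reductase (GSR). They were chosen by name, and a gene was represented by every array probe whose identifier was one of its RefSeq accessions. All 10 genes had such a probe, out of 19483 genes that RefSeq probes named, and they were read by 14 of the 42405 probes on each array. Of the 14 probes, 11, for 8 of the 10 genes, passed the filter on dim signal.

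Superoxide dismutases turn superoxide into hydrogen peroxide in the cytosol (SOD1), the mitochondrial matrix (SOD2) and the extracellular space (SOD3). Catalase, mainly in peroxisomes, and the glutathione peroxidases then remove hydrogen peroxide or lipid hydroperoxides, the latter at the expense of reduced glutathione, which glutathione reductase regenerates with NADPH. In tumour cells these enzymes are studied for their part in the handling of oxidants during growth and drug treatment.

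PE/CA-PJ41, an established line from a human oral squamous cell carcinoma, was compared in 2 states without drug treatment. By the labels NCE cells carried an empty transfection vector, whereas the study's text calls its control cells un-transfected in places, so whether the vector and selection were shared by both groups is not settled. CYGB+ cells carried the pCMV6-Neo plasmid with the human cytoglobin cDNA, and the protocol given for every sample was stable selection in G418 with cloning rings. Cytoglobin is a haem globin of the cytosol. By the study's methods the CYGB+ cells were the single clone LST421, so any difference between that clone and the NCE cells that does not come from cytoglobin cannot be told apart from one that does. Total RNA from 3 extractions of each was hybridised on 9 NCE arrays (3 per extraction) and 6 CYGB+ arrays (2 per extraction). Each extraction was taken as 1 biological replicate and its arrays were averaged, so n = 3 per group; the p-values measure the spread between extractions of 1 line and 1 clone.

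Several measured facts bear on every direction given below. The CYGB probe, which should separate the groups, read 11.85, 12.15 and 11.96 in the NCE replicates and 11.38, 12.44 and 11.97 in the CYGB+ replicates on the log2 green signal scale. The groups overlapped, and the difference was -0.055 ± 0.25 (SE; limma adjusted p = 0.911). The probe was well above background on all 9 and all 6 arrays, and its position relative to the cDNA is not given in the sources used here, and the study describes the parent line as not expressing cytoglobin. The group names below are therefore those of the labels ("CYGB+" means the arrays labelled CYGB+). The labels gave Cy3, read in the green channel, for all samples, whereas the study's methods gave Cy5 for control cells and Cy3 for CYGB+ cells; the red channel also carried signal, and only green was used. If the dyes of the methods held for these arrays, the green channel of the NCE arrays would not hold NCE RNA. On the slides, 8 NCE arrays lay on slide 1, and 1 NCE array (replicate 1, array 3) and all 6 CYGB+ arrays lay on slide 2. Slide and group therefore could be separated only through that 1 array. There were 4 arrays that stood apart from their group's median array, by 1.81 to 4.30 times the group's usual deviation. These were NCE replicate 3 array 2, NCE replicate 1 array 3, CYGB+ replicate 1 array 1 and CYGB+ replicate 3 array 2. Arrays averaged as 1 replicate agreed unevenly. With each probe centred, the mean correlation with the same replicate's other arrays was -0.035 in CYGB+ replicate 1 and 0.738 in CYGB+ replicate 2. It was 0.012 for NCE replicate 3 array 2 and 0.098 for NCE replicate 1 array 3. All 8 squamous epithelial markers were measured above background, with mean log2 signals of 7.47 to 15.01 in NCE and 7.61 to 15.15 in CYGB+. KRT6A was called lower in CYGB+ (difference -0.46, adjusted p = 0.0448), and KRT14 (0.76, 0.0672), EPCAM (-0.47, 0.0745) and DSG3 (-0.27, 0.137) did not overlap between groups without being called. Of the fibroblast markers, DCN and PDGFRB did not pass the filter, COL1A1 was not called (6.47 against 6.57, adjusted p = 0.700), and COL1A2 was lower in CYGB+ (7.85 against 6.53, adjusted p = 0.00309). The summed fibroblast signal, which counts DCN and PDGFRB too, was 8.75 to 8.90 in NCE and 8.22 to 8.35 in CYGB+ on the log2 scale. COL1A2 was the only one of these fibroblast markers called lower. Of the 6 leukocyte and endothelial markers, CD14 and CDH5 passed the filter without being called and the other 4 did not pass it. The part of these markers in the results below was not tested.

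The promoter sequences of CAT and GPX2 are shown because these were 2 of the genes called lower below, and that of GPX8 because its replicates lay the other way. Each is the stretch of 250 bases before the transcription start, 5′ to 3′ on the gene's strand, from RefSeq on GRCh38.p14. Capitals mark the antioxidant response element core TGACNNNGC, the GC box GGGCGG and the CCAAT box CCAAT, on either strand.
CAT, chr11:34438684-34438933, plus strand: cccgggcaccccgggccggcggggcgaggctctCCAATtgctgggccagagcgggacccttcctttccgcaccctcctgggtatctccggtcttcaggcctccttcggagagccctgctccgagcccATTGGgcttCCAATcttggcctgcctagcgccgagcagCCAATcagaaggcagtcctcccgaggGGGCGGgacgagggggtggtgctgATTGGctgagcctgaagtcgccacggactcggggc
GPX2, chr14:64942746-64942995, minus strand: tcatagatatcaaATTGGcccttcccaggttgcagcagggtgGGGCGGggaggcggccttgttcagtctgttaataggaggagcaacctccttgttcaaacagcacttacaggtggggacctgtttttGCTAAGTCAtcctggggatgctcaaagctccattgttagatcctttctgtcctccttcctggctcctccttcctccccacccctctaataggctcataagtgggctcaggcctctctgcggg
GPX8, chr5:55159921-55160170, plus strand: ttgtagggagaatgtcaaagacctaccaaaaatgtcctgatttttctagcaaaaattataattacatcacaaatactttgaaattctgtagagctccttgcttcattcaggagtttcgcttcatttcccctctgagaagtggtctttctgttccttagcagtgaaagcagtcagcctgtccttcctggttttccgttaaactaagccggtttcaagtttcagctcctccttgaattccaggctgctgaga

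Entries were found for 8 of the 10 genes, in 13 windows since GPX4 and SOD2 had several starts; SOD1 and GSR had none. The CAT window held 5 CCAAT boxes, 1 GC box and no antioxidant response element core. The GPX2 window held 1 of each motif, with the antioxidant response element core in the reverse orientation. It was 1 of the 13 windows with that core, and 10.9% of 35116 promoter windows of the same length held one. The GC box was present in 11 of the 13 windows against 42.6% of all promoters, and the CCAAT box in 8 of 13 against 32.0%. Some GPX4 windows overlap and share the same matches, so the 13 windows are not independent. The GPX8 window held none of these letters. The motifs do not overlap in the windows shown, and a match describes the sequence only.

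Among the 8 tested genes, SOD1, CAT and GPX2 were lower in CYGB+ and no gene was called higher. Over all 21860 probes tested, 11% were called in either direction by limma at an adjusted p of 0.05, with 5.6% higher and 5.4% lower. The replicate values of 4 of the 8 genes did not overlap between groups (SOD1, CAT and GPX2 below, GPX8 above), where 34% of all tested probes did not overlap (17.1% with CYGB+ above and 16.9% below). At an unadjusted p under 0.05 lay 28% of all tested probes and 5 of the 8 genes, the further ones being GPX4 and GPX8, both with positive differences. The median log2 difference of the 8 genes was -0.14, against 0.0027 over all tested probes. 

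**Figure D1:**
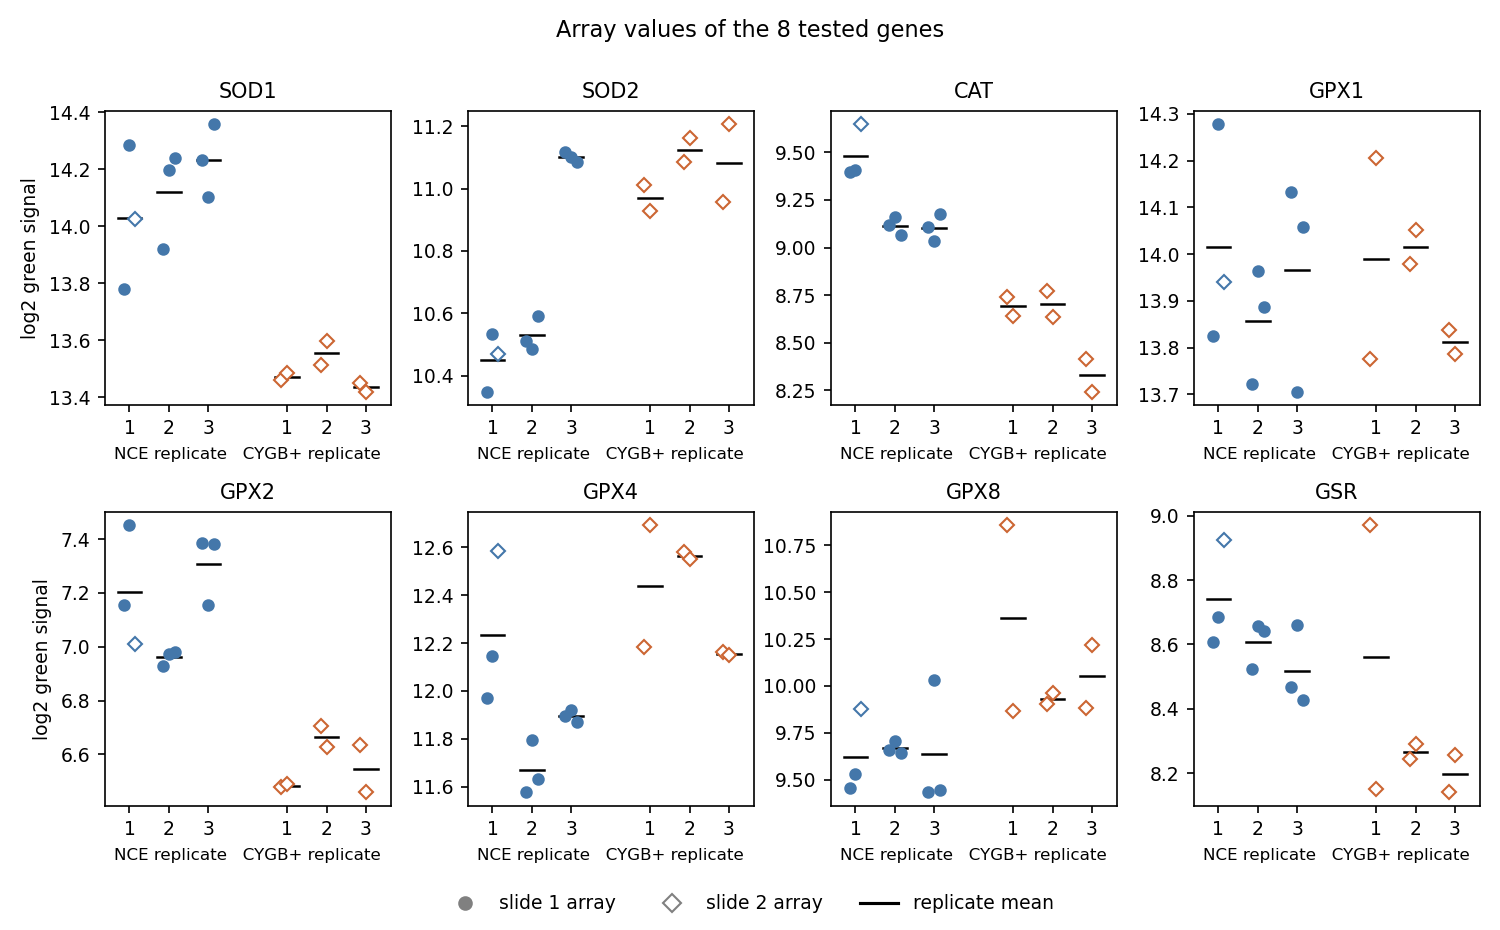
Log2 green signal on every array for the 8 tested genes, by biological replicate (3 arrays each for NCE in blue, 2 each for CYGB+ in orange). Filled circles are slide 1, open diamonds slide 2, black lines replicate means, and each panel has its own axis; all 6 CYGB+ arrays lie below all 9 NCE arrays for SOD1, CAT and GPX2, and the slide 2 array of NCE lies among the CYGB+ arrays for GPX4.

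SOD1, the copper-zinc enzyme of the cytosol, had log2 signals of 14.03, 14.12 and 14.23 in NCE replicates 1 to 3 and of 13.47, 13.56 and 13.43 in the CYGB+ replicates. Every CYGB+ replicate was below every NCE replicate, and so was each of the 6 CYGB+ arrays against each of the 9 NCE arrays. The difference was -0.64 ± 0.10 (SE, n = 3 and 3), or 1.56-fold lower, with an adjusted p of 0.0104. The NCE array on slide 2 read 14.02, which differed from the mean of the slide 1 arrays of its replicate by -0.0073. Those slide 1 arrays read 13.78 and 14.29, so the small shift is from a mean of unlike arrays. With slide as a block the difference was -0.57 and no longer past the threshold (adjusted p = 0.119). That fit used single arrays, with biological replicate as a random block, and not replicate means. The same fit without slide gave -0.64 (adjusted p = 0.000193). The call was also lost without NCE replicate 2 (0.0562) or NCE replicate 3 (0.0561), in the processed signal scaled to the 75th percentile (-0.44, 0.132) and in the deposited log values (-0.56, 0.0627).

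SOD2, the manganese enzyme of the mitochondrial matrix, read 10.45, 10.53 and 11.10 in NCE and 10.97, 11.12 and 11.08 in CYGB+. The groups overlapped because NCE replicate 3 was as high as the CYGB+ replicates, on all 3 of its arrays. The difference was 0.36 ± 0.18 (SE) and did not pass the test (adjusted p = 0.226). It was 0.57 without NCE replicate 3 (adjusted p = 0.0613). SOD3, the secreted enzyme, was not well above background on any of the 9 NCE or 6 CYGB+ arrays and was not tested.

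CAT read 9.48, 9.11 and 9.10 in NCE and 8.69, 8.70 and 8.33 in CYGB+. The groups did not overlap, NCE replicate 1 was the highest and CYGB+ replicate 3 the lowest. The difference was -0.66 ± 0.15 (SE), or 1.58-fold lower, with an adjusted p of 0.0363. On slide 2 alone the NCE array read 9.65 and the CYGB+ arrays 8.24 to 8.77. That NCE array was one of those that stood apart. It read 0.25 above the mean of the slide 1 arrays of its replicate. Over all tested probes the median size of that shift was 0.17. The fit with slide as a block separates slide from group only through this array. With slide as a block the difference was -1.01 (adjusted p = 0.00602), against -0.66 (0.000455) in the same fit of single arrays without slide. The call was lost when NCE replicate 1 (0.0902), NCE replicate 2 (0.0999), NCE replicate 3 (0.0930), CYGB+ replicate 2 (0.0568) or CYGB+ replicate 3 (0.0819) was left out, without the filter on dim probes (0.0723) and with the methods' t-test after Benjamini-Hochberg adjustment (0.130).

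The genes whose 6 replicate means were most like those of CAT, out of 12787 genes compared, were TBX1, DDB2 and ILK, with Pearson correlations of 0.995, 0.995 and 0.994. The correlation is over 6 points in 2 groups, so a difference between the groups is enough to raise it.

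GPX1, the widespread selenium-dependent peroxidase, read 14.01, 13.86 and 13.97 in NCE and 13.99, 14.02 and 13.81 in CYGB+. The values of the groups were interleaved. The difference was -0.0066 ± 0.10 (SE), with a 95% interval of -0.24 to 0.23 and an adjusted p of 0.975. Its second probe gave 0.20 ± 0.17 (adjusted p = 0.469).

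GPX2, the peroxidase typical of epithelia, read 7.21, 6.96 and 7.31 in NCE and 6.48, 6.67 and 6.55 in CYGB+. No replicate of CYGB+ reached any NCE replicate, and all 6 CYGB+ arrays were below all 9 NCE arrays. The difference was -0.59 ± 0.12 (SE), or 1.51-fold lower, with an adjusted p of 0.0241. This was a dim probe. Its unadjusted green signal was 89.00 to 162.50 on the NCE arrays and 42.50 to 70.50 on the CYGB+ arrays, where the local background was 23.00 to 48.50 and 36.00 to 42.00. The size of the difference varied with the signal used, being -1.25 in the deposited processed signal (adjusted p = 0.0243) and -0.81 with no background correction (0.0176). The NCE array on slide 2 read 7.01, which was 0.29 below the mean of the slide 1 arrays of its replicate. Over all tested probes the median size of that shift was 0.17. With slide as a block the difference was -0.41 and not past the threshold (adjusted p = 0.314). The call was lost without NCE replicate 1 (0.0727), NCE replicate 3 (0.0997) or CYGB+ replicate 3 (0.0635), with 75th percentile scaling (0.0605) and with the methods' t-test (0.0854).

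GPX3, the secreted plasma peroxidase, was well above background in at least 1 of its 2 spots on 1 of 9 NCE and 2 of 6 CYGB+ arrays with one probe and on 1 and 0 with the other, and was not tested.

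GPX4, which reduces lipid hydroperoxides in membranes, read 12.23, 11.67 and 11.90 in NCE and 12.44, 12.56 and 12.16 in CYGB+. NCE replicate 1 was above CYGB+ replicate 3, so the groups overlapped. The difference was 0.45 ± 0.17 (SE) and did not pass the test (adjusted p = 0.137). The NCE array on slide 2 read 12.59, higher than 5 of the 6 CYGB+ arrays and 0.53 above the slide 1 arrays of the same replicate. Over all tested probes the median size of that slide shift was 0.17. With slide as a block the difference turned to -0.14 (adjusted p = 0.903), and within slide 2 to -0.20. Without the 4 arrays that stood apart, which include the only NCE array on slide 2, it was 0.60 (adjusted p = 0.0260). Those arrays were picked for deviation from their own group, so leaving them out narrows the spread within groups. With single arrays as samples and biological replicate as a random block the call was gained too (0.0391).

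GPX8, a membrane peroxidase of the endoplasmic reticulum, read 9.62, 9.67 and 9.64 in NCE and 10.36, 9.93 and 10.05 in CYGB+. All CYGB+ replicates were above the narrow NCE range, led by replicate 1. The difference was 0.47 ± 0.13 (SE) with an adjusted p of 0.0544, just short of the threshold. In CYGB+ replicate 1 the 2 arrays read 10.86 and 9.87, and array 1 was one of those that stood apart. The NCE array on slide 2 was 0.38 above the slide 1 arrays of its replicate, and with slide as a block the difference was 0.20 (adjusted p = 0.901). The call was gained without CYGB+ replicate 2 (0.0474) and without the 4 arrays that stood apart (0.36, adjusted p = 0.0190). Those 4 arrays include the only NCE array on slide 2 and were picked for deviation from their own group. The second probe gave 0.10 ± 0.20 (adjusted p = 0.778), and its groups overlapped.

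GSR, which keeps glutathione reduced, read 8.74, 8.61 and 8.52 in NCE and 8.56, 8.27 and 8.20 in CYGB+. CYGB+ replicate 1 lay within the NCE range and the other CYGB+ replicates below it. The difference was -0.28 ± 0.13 (SE) and did not pass the test (adjusted p = 0.196). CYGB+ replicate 1 array 1 read 8.97 and array 2 read 8.15, and without the 4 arrays that stood apart the difference was -0.38 (adjusted p = 0.0155). Leaving them out drops the only NCE array on slide 2 and, by the way they were picked, narrows the spread within groups. The second probe read 7.54, 7.51 and 7.52 in NCE and 7.26, 7.25 and 7.24 in CYGB+. These groups did not overlap, and the difference of -0.27 ± 0.08 was not past the threshold (adjusted p = 0.0795). It passed with the methods' t-test (0.0208), without the filter on dim probes (0.0178), with arrays as samples (0.00682) and without the 4 arrays that stood apart (0.0412).

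**Figure D2:**
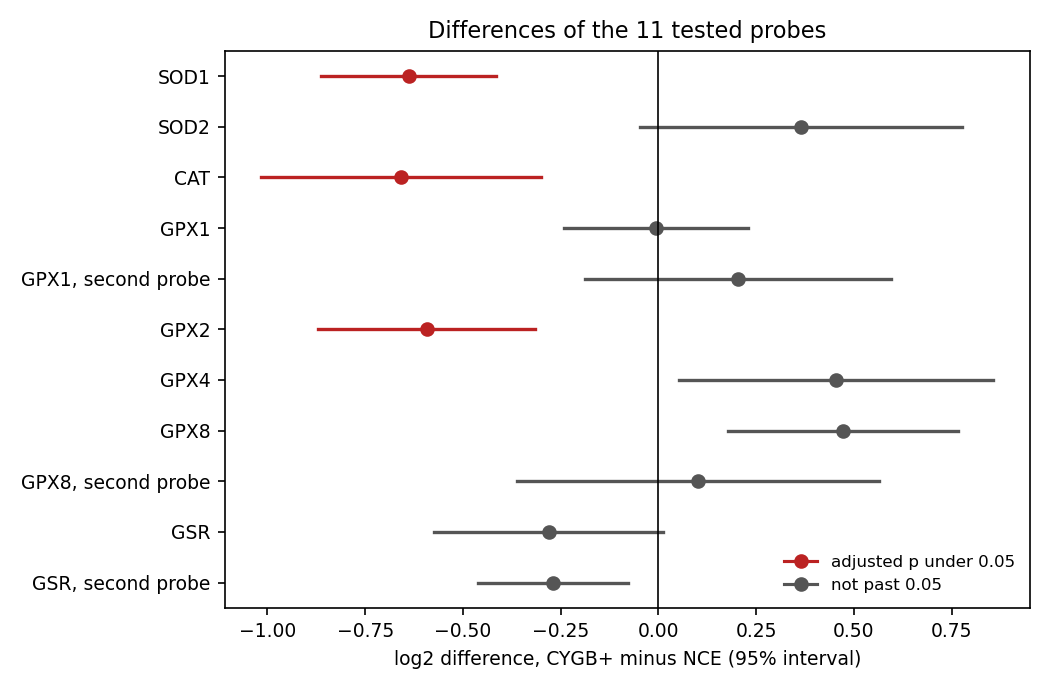
Log2 difference, CYGB+ minus NCE, with its 95% interval, for the 11 tested probes of the 8 genes (limma, n = 3 and 3 replicates). Red probes (SOD1, CAT, GPX2) have an adjusted p under 0.05; their intervals, like those of GPX4, GPX8 and the second GSR probe, exclude 0.

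The differences under other treatments of the slides, signal and arrays were compared side by side. The differences of SOD1, CAT, GPX2 and GSR were negative under each of the 5 settings plotted, and those of SOD2 and GPX8 positive. GPX4 changed sign with slide as a block and within slide 2. GPX1 changed sign too, from -0.0066 in the main setting to 0.13 in the processed signal.

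**Figure D3:**
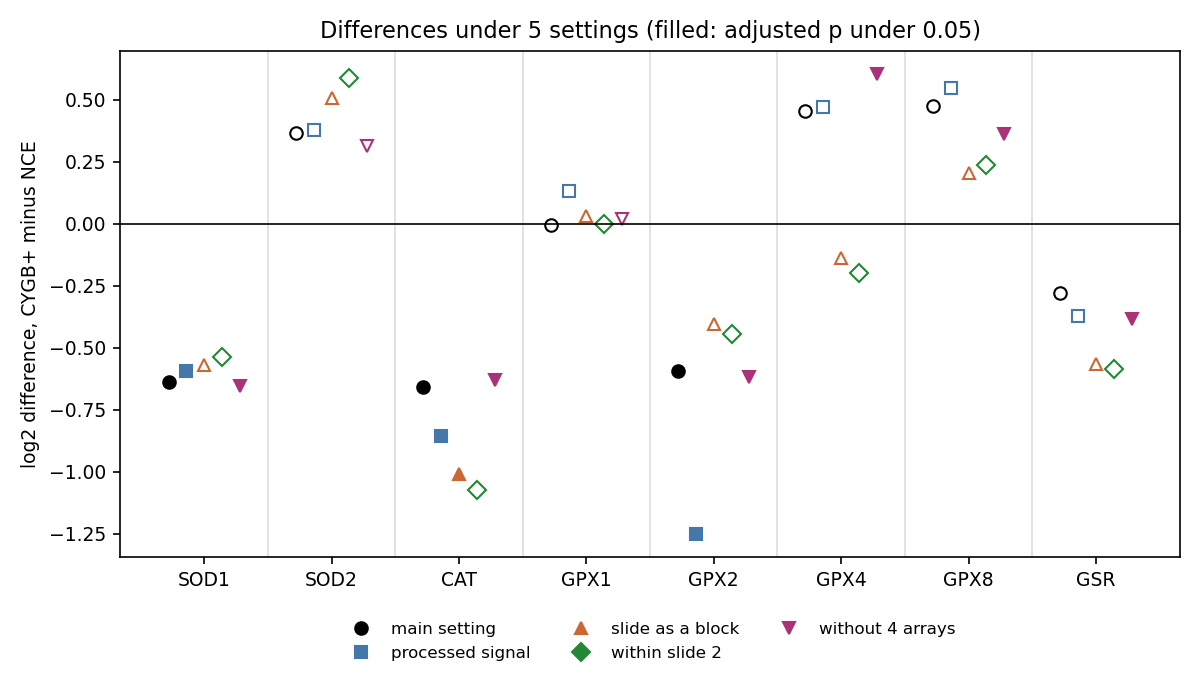
Log2 difference, CYGB+ minus NCE, of the 8 tested genes under 5 settings; filled symbols have an adjusted p under 0.05. The GPX4 symbols for slide as a block (-0.14) and within slide 2 (-0.20) lie below 0, and CAT is the gene filled under slide as a block.

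Genes around these enzymes were grouped in 7 lists. GPX5, GPX6 and GPX7, other glutathione peroxidases, had no probe that passed the filter. The counts of the other lists stand against 5.6% of all tested probes called higher and 5.4% called lower. Of the copper handling genes that serve SOD1 (CCS, ATOX1, SLC31A1), limma called 0 of 3. It put 1 of 3 at an unadjusted p under 0.05, where 28% of all tested probes lay. This was the copper chaperone CCS, at -0.46 (adjusted p = 0.0718). In the glutathione synthesis and turnover list, 1 of 9 tested genes was higher and 1 lower, with a median of 0.013. CHAC1, which degrades glutathione, was higher by 1.08 ± 0.14 (adjusted p = 0.00735), and GSS, which makes the second step of glutathione synthesis, was lower by 0.50 ± 0.08 (adjusted p = 0.0141). Both subunits of the first enzyme of that synthesis lay apart in opposite ways without passing the test, GCLC at 0.60 (0.0637) and GCLM at -0.88 (0.0701).

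Among 6 glutaredoxin and glyoxalase genes, GLRX, a glutathione-dependent oxidoreductase, was higher by 0.60 ± 0.14 (adjusted p = 0.0351). Of 8 selenoprotein synthesis genes, 2 were higher: SCLY, which frees selenium from selenocysteine, by 1.17 ± 0.16 (0.00881) and TRNAU1AP, which associates with the selenocysteine tRNA, by 0.57 ± 0.09 (0.0108). Of 9 tested peroxisomal import genes, PEX10, a ubiquitin ligase of the import machinery, was higher by 1.03 ± 0.18 (0.0157). In the list on lipid peroxidation around GPX4, SLC3A2, the heavy chain of the cystine transporter, was higher by 0.96 ± 0.13 (0.00763) and LPCAT3, which acylates lysophospholipids, lower by 0.63 ± 0.09 (0.00845), out of 5 tested.

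In all, 8 of the 40 tested genes of these lists were called, against 11% of all tested probes. With replicate number as a block 13 were called, against 13.7% of all probes, the numbers having been taken to pair the samples. The block added CCS (0.0465), GCLC (0.0300), GCLM (0.0392), HAGH (0.0486) and SLC7A11 (0.0292); these 5 names were chosen after their values were seen. It moved the count from 0 to 1 for copper handling, from 2 to 4 for glutathione synthesis, from 1 to 2 for glutaredoxins and glyoxalases and from 2 to 3 for lipid peroxidation. With slide as a block, where 3.35% of all probes were called, CHAC1, SCLY, LPCAT3 and SLC3A2 were called (0.0119, 0.0381, 0.00322, 0.00436), and GSS, GLRX, PEX10 and TRNAU1AP were not (0.0926, 0.323, 0.202, 0.709).

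**Figure D4:**
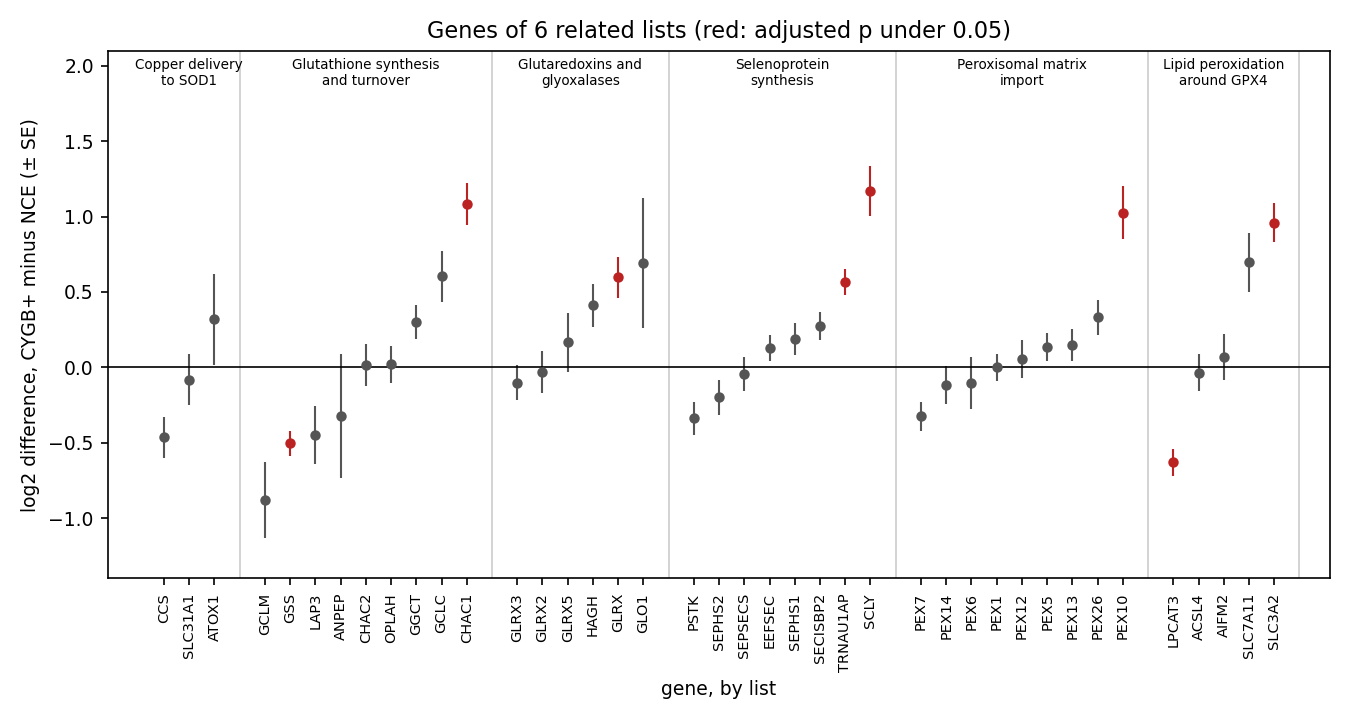
Log2 difference, CYGB+ minus NCE, with its standard error, for the tested genes of 6 lists (n = 3 and 3 replicates); red points have an adjusted p under 0.05. CHAC1, SCLY, PEX10 and SLC3A2 stand near 1 and above most of their lists, LPCAT3 and GSS below 0.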

How the data were processed

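Expression was measured on Agilent arrays of total RNA from PE/CA-PJ41 cells, 9 arrays labelled NCE and 6 labelled CYGB+. The authors deposited green and red intensity values per spot from Agilent Feature Extraction 10.7.3.1. They also deposited a table of natural log values of the processed green signal, centred per probe, of which 15031 probes were matched. Its slopes on the scanner values were 0.903 to 1.00 and its column medians were -0.161 to 0.182. Its exact centring is not given in the sources used here, and its direction follows the scanner values. Per the file headers, the deposited flag columns (other) mark spots above background and outliers.

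Median green intensity with median local background was corrected by normexp (offset 50), since the mean intensity was not in the files; control spots were dropped, arrays were quantile normalised, log2 was taken, outlier spots were left out, and spots and then arrays were averaged per replicate. A probe was tested if well above background on most arrays of at least 2 of 3 replicates of a group. limma 3.58.1 in R 4.3.3 was used with Benjamini-Hochberg adjustment over 21860 probes, and tested on simulated data. The precision is limited by the number of biological replicates, 3 per group. For a gene with several probes, the brightest led. Named were all members and CYGB, up to 3 called genes per list and the 3 genes most like the member with the largest called difference. Members and lists were chosen with earlier results of these data known. Deviations of same-numbered replicates correlated at 0.214, 0.230 and 0.305, and those of differently numbered replicates at -0.504 to 0.295, with 0.209, 0.295 and 0.164 for NCE 1, 2 and 3 against CYGB+ 2, 3 and 1. All same-numbered pairs were above 0.1. The replicate numbers of the labels were therefore taken to pair the samples in the setting with replicate number as a block. The main setting used no such block. No shared day is stated, and the check hardly separates the labels' numbers from that other matching. In total 19 alternative settings were run, of which 2 (no background correction, and leaving out arrays that stood apart) were chosen after seeing the data. The settings with slide as a block and with arrays as samples were fitted on single arrays, with biological replicate as a random block.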

Additional observations from a re-analysis of the deposited data

Results flagged for a closer look

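Within groups of arrays, 3 of 20 checks of the highest or lowest array found it far from the others; chance flags about 1 in 20. GPX3 read 6.29 on NCE replicate 3 array 2, the 1 NCE array on which this probe was well above background. GPX8 read 10.86 and GSR 8.97 on CYGB+ replicate 1 array 1. The red channel was used in no comparison. It had 55.6% of its spots well above background on CYGB+ replicate 1 array 1, the lowest of the arrays. On CYGB+ replicate 2 array 2, the highest, it had 61.4%.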

How the results depend on the processing

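Of the 21860 probes, 2405 were called (main setting). The count was 1529 with the 75th percentile in place of quantile normalisation and 705 with the methods' t-test after Benjamini-Hochberg adjustment. It was 4888 with arrays as samples, 732 with slide as a block and 5631 without the arrays that stood apart. The deposited log values, used without the filter on dim probes, gave 1444 out of their own 15031 matched probes. Leaving out 1 replicate gave 492 to 2409. The arrays that stood apart were picked by deviation from their own group, so leaving them out narrows the spread within groups. Member genes called numbered 3, but 1 with the t-test, 1 with slide as a block, 0 within slide 2, 6 without the arrays that stood apart and 0 to 3 leaving out a replicate; the fit with replicate block gave 3 and changed no member's call. List genes called numbered 8, but 5 with the processed signal at the 75th percentile, 3 with the t-test, 14 with arrays as samples, 4 with slide as a block, 0 within slide 2, 13 with the replicate block, 14 without the arrays that stood apart and 3 to 11 leaving out a replicate. GPX4 turned to -0.14 with slide as a block and -0.20 within slide 2. The second GPX8 probe turned to -0.32, -0.31 and -0.080 with slide as a block, within slide 2 and without the arrays that stood apart, and ranged from -0.14 to 0.25 leaving out a replicate. GPX1, at -0.0066, turned to 0.13 and 0.27 in the processed signal (quantile, 75th percentile), 0.018 with the 75th percentile, 0.029 with slide as a block, 0.076 in the deposited log values and 0.018 without the arrays that stood apart, and ranged from -0.051 to 0.057 leaving out a replicate. CYGB, at -0.055, turned to 0.091 in the processed signal at the 75th percentile and 0.047 in the deposited log values, and ranged from -0.31 to 0.22 leaving out a replicate. The cause was not tested. Within slide 2 there was 1 NCE array, so that setting has little power and says nothing of stability.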
